A study of Homo sapiens with 6 samples.

Results

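The stretch described here is a block of human chromosome 5 that begins about 1 Mb above FGF18 and ends 3 Mb above it, at chr5:171881528-173852457 (hg19). FGF18 encodes a secreted fibroblast growth factor, and its fragment chr5:170851908-170853009 was the viewpoint of a 4C-seq experiment. The stretch was set by position only, as all HindIII fragments with a midpoint inside those coordinates. It held 421 of the 20398 fragments of chromosome 5 that had a read in any library. Of these 20398, 3560 lay within 10 Mb of the viewpoint and outside the 10 kb next to it. "Above" means toward higher coordinates on the chromosome and "below" toward lower ones.

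The libraries came from K562, a cell line grown from the blood cancer of a patient with chronic myeloid leukaemia. 3 kinds of cell were compared, each put through the CRISPR excision procedure, with 2 libraries per group. EV cells carried the empty vector and are labelled untreated. S1KO cells had silencer 1 removed, and DKO cells had both silencer 1 and silencer 2 removed. The labels do not say whether a group was 1 clone or a pool of cells. The series' design calls the libraries biological replicates without saying that they came from separate cultures, so the p-values measure only how far these libraries scatter, and that scatter may be technical.

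In 4C-seq, crosslinked chromatin is cut with a restriction enzyme and religated, so that pieces of DNA that lay close together in the nucleus become joined. Everything joined to 1 chosen piece, the viewpoint, is then amplified and sequenced, and the reads on a fragment stand for how often it was caught with the viewpoint. Contacts fall off with distance along the chromosome, and boundaries between chromatin domains can make that fall steeper. Silencers are DNA elements that lower the expression of genes, and some of them reach their genes by looping. The design asks whether taking silencers out changes the contacts of FGF18.

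Genes of the stretch include DUSP1, a phosphatase that switches off MAP kinases, and NKX2-5, a homeobox transcription factor of heart development. STC2 encodes stanniocalcin 2, a secreted glycoprotein, and CPEB4 encodes a protein that binds messenger RNA and controls its translation. In the gene order of the RefSeq annotation of GRCh38.p14, 11 protein-coding genes run outward from NEURL1B to CPEB4. In order they are NEURL1B, DUSP1, ERGIC1, RPL26L1, ATP6V0E1, CREBRF, BNIP1, NKX2-5, STC2, BOD1 and CPEB4. The list was cut by gene name, from the gene after SH3PXD2B to CPEB4, and not at the edges of the stretch. It may therefore leave out genes of the stretch beyond CPEB4. ATP6V0E1 is a subunit of the proton pump of acidic organelles, and RPL26L1 resembles a ribosomal protein. Gene positions on hg19 were not used, so no gene is placed in a window or on a fragment below.

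The promoters of the first and the last, in gene order, of the 4 naming genes that have an entry among the RefSeq promoters are shown. They are not tied to any window or to the inner or outer part of the stretch. Each run is the 250 bases before the start of the gene, 5′ to 3′ on the strand of the gene, on GRCh38.p14. The DUSP1 run lies at chr5:172771196-172771445 on the minus strand. The CPEB4 run lies at chr5:173888099-173888348 on the plus strand. These positions belong to another build than the fragments and cannot be set against them. Capitals mark matches on either strand to GATC, the DpnII site, and to a core of the motif bound by the loop anchor protein CTCF, spelled CCA, any 2 bases, AG, any 2 bases, GGC. The HindIII site AAGCTT was searched as well.
DUSP1: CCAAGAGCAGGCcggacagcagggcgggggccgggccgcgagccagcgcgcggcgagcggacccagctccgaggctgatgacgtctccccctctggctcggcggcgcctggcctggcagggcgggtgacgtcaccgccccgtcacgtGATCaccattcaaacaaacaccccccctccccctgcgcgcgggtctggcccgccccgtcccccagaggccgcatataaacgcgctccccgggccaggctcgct
CPEB4: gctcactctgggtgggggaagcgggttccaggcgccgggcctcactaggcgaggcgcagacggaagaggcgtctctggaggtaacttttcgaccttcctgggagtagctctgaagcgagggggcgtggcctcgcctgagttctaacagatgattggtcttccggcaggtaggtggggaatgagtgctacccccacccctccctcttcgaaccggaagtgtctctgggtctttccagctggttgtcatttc
The DUSP1 run held 1 match to the CTCF core and 1 DpnII site, which did not overlap, and no HindIII site. The CPEB4 run held none of these letters. Of 35116 RefSeq promoter runs of the same length, 2.02% held the CTCF core, 35.8% held GATC and 5.02% held AAGCTT. G and C made up 74.4% of the DUSP1 run, 60.8% of the CPEB4 run and 63.6% of the STC2 run, against a median of 58% over the promoters. NKX2-5 is named only.

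The libraries held 708503 to 1919737 reads in all. Between 82659 and 314664 of these fell on chromosome 5 within 10 Mb of the viewpoint and outside the 10-kb zone, and these reads are the denominator used below. The zone itself took 3.18 to 11.5% of the chromosome 5 reads, with the highest value in DKO replicate 1. The EV libraries differed in how many fragments they listed within 10 Mb, 1649 in replicate 1 and 889 in replicate 2, at nearly equal reads (84867 and 82659). The part of this difference in the results was not tested, and values are given for each library.

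Reads in the stretch numbered 7407 and 6335 in EV, 12021 and 10890 in S1KO, and 10240 and 14781 in DKO. As a share of the reads within 10 Mb, the stretch took 8.73% (95% Wilson interval 8.54 to 8.92) in EV replicate 1 and 7.66% (7.49 to 7.85) in EV replicate 2. It took 7.48% (7.35 to 7.61) and 8.23% (8.08 to 8.38) in the S1KO libraries. It took 3.71% (3.64 to 3.78) and 4.70% (4.62 to 4.77) in the DKO libraries. Both DKO libraries thus lay below all 4 others, while EV and S1KO overlapped. Out of all chromosome 5 reads outside the zone, the stretch took 4.97 and 3.08% in EV, 4.40 and 4.59% in S1KO, and 2.37 and 3.15% in DKO, where DKO replicate 2 lay above EV replicate 2. The separation of DKO from EV thus held for reads within 10 Mb and not for this denominator. Reads were amplified by PCR and carry no molecular identifiers, so the intervals cover counting error only.

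The mean share was 4.21% in DKO and 8.20% in EV, a ratio of 0.513 and a log2 difference of -0.96 (SE 0.19, n = 2 each). The exact two-sided permutation test gave p = 0.333, which is the smallest value that 2 libraries against 2 can reach. Against S1KO, at a mean of 7.85%, the DKO share had a ratio of 0.536 (log2 -0.90, SE 0.18) with the same exact p of 0.333. DKO against the other 4 libraries together gave an exact two-sided permutation p of 0.0667, again the smallest possible. After Benjamini-Hochberg adjustment these values were 0.5 over 27 comparisons of shares and ratios and 0.0857 over the 9 comparisons against 4 libraries. Every one of these permutation tests is at its floor, so none of them could pass 0.05. The log2 difference between DKO and EV was -0.54 with all chromosome 5 reads as denominator (exact permutation p = 0.667) and -0.53 with reads 1 to 10 Mb away (exact permutation p = 0.333). Capping reads at the 90th percentile gave -0.63 (exact permutation p = 0.333).

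S1KO and EV differed by -0.343 percentage points (SE 0.651; exact permutation p = 0.667, n = 2 each). That difference is smaller than the spread between the EV libraries. Its sign turned when all chromosome 5 reads were the denominator (log2 0.16 instead of -0.06), so no direction is given for it.

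**Figure D1:**
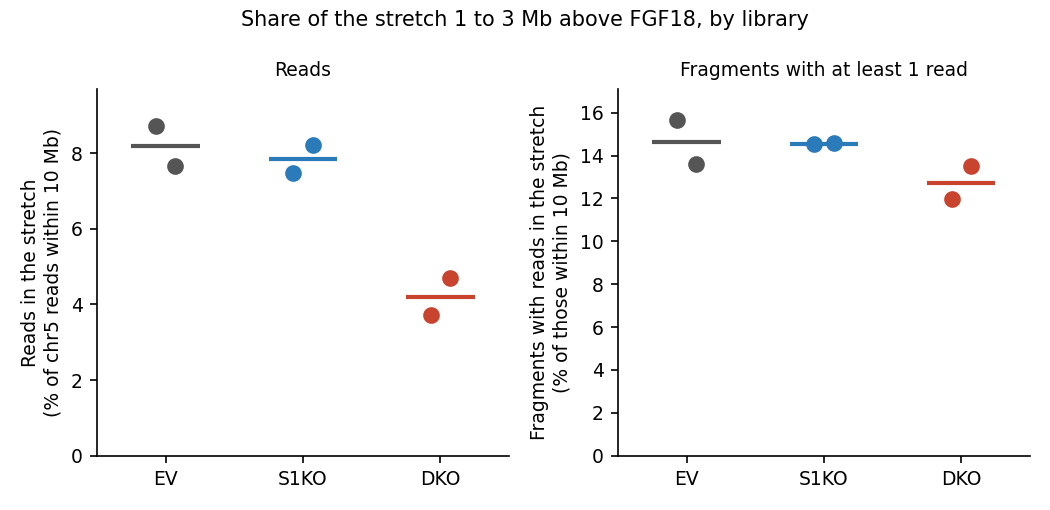
Share of the stretch in each library, as a percent of reads (left) and of fragments with at least 1 read (right), both out of those within 10 Mb of the viewpoint. Points are libraries and lines are group means of 2; the DKO points for reads, 3.71 and 4.70%, lie below the other 4, which span 7.48 to 8.73%, and the fragment shares lie closer together.

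Counting every fragment once, whatever its reads, gave a smaller difference. Members with reads numbered 258 and 121 in EV, 250 and 209 in S1KO, and 173 and 268 in DKO. Their share of all fragments with reads within 10 Mb was 15.7% (Wilson interval 14.0 to 17.5) and 13.6% (11.5 to 16.0) in EV, 14.6% and 14.6% in S1KO, and 11.9% and 13.5% in DKO. The DKO libraries were again the lowest, but DKO replicate 2 and EV replicate 2 differed by less than their counting intervals. The ratio of the DKO mean to the EV mean was 0.870 (log2 -0.20, SE 0.13; exact permutation p = 0.333, n = 2 each). Thinned to 1 depth, the shares were 15.7% and 13.6% in EV, 14.6% and 14.5% in S1KO, and 11.6% and 13.5% in DKO. The difference in reads was thus larger than the difference in fragments touched.

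A fragment of the stretch held 28.7 and 52.4 reads on average in EV where it had any, 48.1 and 52.1 in S1KO, and 59.2 and 55.2 in DKO. Over all fragments within 10 Mb these means were 51.5 and 93.0 in EV, 93.6 and 92.2 in S1KO, and 190.5 and 158.5 in DKO. Fragments of the stretch therefore carried fewer reads than the average fragment within 10 Mb in all 6 libraries, with the widest gap in DKO. That average includes the fragments near the viewpoint. Over fragments 1 to 10 Mb away the means were 21.3 and 42.9 in EV, 37.5 and 39.0 in S1KO, and 58.2 and 50.2 in DKO. Against these, fragments of the stretch carried more reads in all 6 libraries, with the narrowest gap in DKO.

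The same distances on the other side of FGF18, chr5:167852460-169823389, served as a mirror that needs no scaling between libraries. It held 450 fragments, close to the 421 of the stretch. The stretch had 1.09 and 1.16 reads for each read of the mirror in EV, 0.879 and 1.07 in S1KO, and 0.452 and 0.524 in DKO. The upper side was thus slightly favoured in EV, and in DKO the lower side held about 2 reads for each read above. The log2 difference between DKO and EV was -1.21 (SE 0.12; exact permutation p = 0.333, n = 2 each), and between DKO and S1KO it was -0.99 (SE 0.18; exact permutation p = 0.333). S1KO lay below EV (log2 -0.21, SE 0.15; exact permutation p = 0.333) with no overlap, at 1.07 against 1.09 for the nearest libraries.

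Fragments counted once gave the same order, at 0.985 and 1.09 in EV, 0.962 and 0.941 in S1KO, and 0.660 and 0.775 in DKO. The mirror's own share was 8.02 and 6.60% in EV, 8.51 and 7.71% in S1KO, and 8.22 and 8.97% in DKO. DKO was thus above EV in the mirror without overlap (log2 0.23, SE 0.15, exact permutation p = 0.333, n = 2 each), with S1KO overlapping both. The stretch's own log2 difference was -0.96 with this denominator, -0.54 with all chromosome 5 reads and -0.53 with reads 1 to 10 Mb away. How the log2 difference of -1.21 in the ratio divided between stretch and mirror therefore depended on the denominator.

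Nearer the viewpoint, between the 10-kb zone and the stretch, the inner flank above took 43.3 to 47.8% of reads over the 6 libraries. This even total joined opposite differences between DKO and EV, since in the tiling described below 4 of its 5 windows were lower in DKO and passed the edgeR test (log2 -0.89 to -0.62). The window nearest the viewpoint was higher and passed (log2 0.78, SE 0.064, edgeR adjusted p = 2.0e-06). The stretch had 0.190 and 0.177 reads for each read of that flank in EV, 0.159 and 0.182 in S1KO, and 0.0778 and 0.102 in DKO (DKO against EV log2 -1.04, SE 0.20; exact permutation p = 0.333). With reads capped at the 90th percentile it was -0.47 with overlapping groups (exact permutation p = 0.667). By fragments counted once this difference turned to log2 0.14, with an exact permutation p of 1. The lower DKO value against the inner flank was thus present in reads and not in fragments counted once.

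Farther out, the next interval of equal length held 1.92 and 2.34% of reads in EV, 2.16 and 2.21% in S1KO, and 0.965 and 1.31% in DKO. The ratio of the stretch to this outer flank was 4.55 and 3.27 in EV, 3.46 and 3.73 in S1KO, and 3.85 and 3.58 in DKO. The groups overlapped (DKO against EV log2 -0.06, SE 0.24; exact permutation p = 1), so the lower share in DKO was shared by this flank. All contacts 1 to 10 Mb away, on both sides together, took 31.1 and 31.1% in EV, 30.0 and 30.5% in S1KO, and 21.7 and 24.4% in DKO. Shares of 1 library add up to the whole within 10 Mb, so a larger share near the viewpoint goes with a smaller one farther out. The ratios to the flanks and between windows were chosen after the data had been seen.

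**Figure D2:**
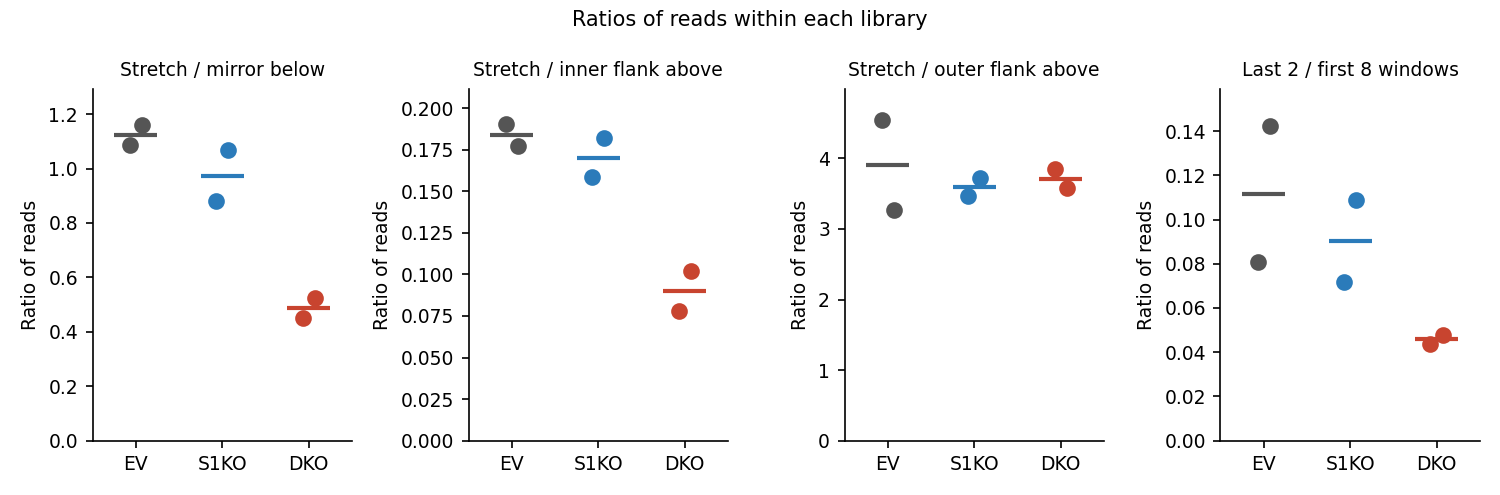
Reads of the stretch divided by those of its mirror, its inner flank and its outer flank, and reads of its last 2 windows divided by those of its first 8, in each library. Points are libraries and lines are group means of 2; DKO lies below EV and S1KO in every panel but that of the outer flank, where the 3 groups overlap between 3.27 and 4.55.

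The stretch was then divided into 10 windows of 197093 bp, and the same tiling was carried over the 10 Mb on both sides (101 windows tested). Levels are reads per 1000 reads within 10 Mb. Contacts were fewer at the far end than at the near end in every library. Window 1, chr5:171881528-172078620, held 19.0 and 17.2 in EV, 16.1 and 17.4 in S1KO, and 9.38 and 12.7 in DKO. Window 10, chr5:173655365-173852457, held 3.92 and 4.56 in EV, 2.86 and 4.90 in S1KO, and 0.979 and 1.33 in DKO. The first window thus had 4.84 and 3.78 times the reads of the last in EV, 5.64 and 3.54 times in S1KO, and 9.58 times in both DKO libraries. As a description, the slope of log2 reads on log2 distance over the 10 windows was -1.70 and -1.38 in EV, -1.76 and -1.50 in S1KO, and -2.23 and -2.40 in DKO.

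**Figure D3:**
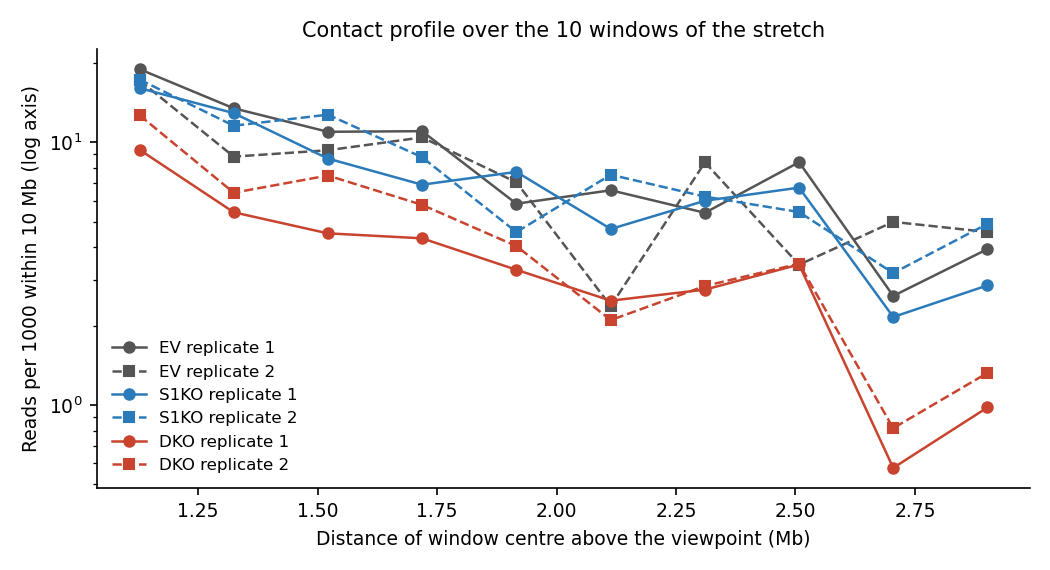
Reads per 1000 reads within 10 Mb (log axis) in the 10 windows of the stretch, against the distance of the window's centre above the viewpoint in Mb. Each line is 1 library; the DKO lines run below the S1KO lines in all 10 windows, and in the last 2 they drop to between 0.577 and 1.33.

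All 10 windows had a lower fitted level in DKO than in EV, with log2 differences from -2.44 to -0.71. In 8 of the 10, both DKO libraries lay below both EV libraries, against 51.0% of the windows within 10 Mb, and in none did they lie above them (12.7%). The exceptions were window 6 and window 8, where EV replicate 2 was as low as DKO. Windows 4, 7, 9 and 10 passed the test, 4 of 10, all of them lower in DKO (edgeR quasi-likelihood test with Benjamini-Hochberg adjustment over 101 windows). Of all 101 windows 13.9% passed in either direction and 9.9% passed as lower. The median log2 difference was -0.94 over the 10 windows and -0.67 over all windows tested, so much of the shift was shared with other windows.

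Window 9, chr5:173458272-173655364, had the lowest log2 difference of the stretch. Its level was 2.60 and 4.98 reads per 1000 in EV, 2.17 and 3.18 in S1KO, and 0.577 and 0.817 in DKO. DKO was below every other library there, at a fitted ratio to EV of 0.184 (log2 -2.44, SE 0.54, edgeR adjusted p = 0.012). The reads behind it numbered 221 and 412 in EV and 159 and 257 in DKO, on 16 and 11 fragments in EV and 6 and 15 in DKO. Window 10 lay at a ratio of 0.272 (log2 -1.88, SE 0.48, edgeR adjusted p = 0.017).

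Window 7, chr5:173064086-173261178, held 5.40 and 8.40 reads per 1000 in EV, 6.0 and 6.22 in S1KO, and 2.75 and 2.84 in DKO. Both DKO libraries were below the other 4, at 0.406 of EV (log2 -1.30, SE 0.38, edgeR adjusted p = 0.033). Window 4, chr5:172472807-172669899, held 11 and 10.4 in EV, 6.91 and 8.79 in S1KO, and 4.32 and 5.79 in DKO. It was the only window of the stretch in which S1KO was also below EV without overlap. DKO stood at 0.470 of EV in it (log2 -1.09, SE 0.32, edgeR adjusted p = 0.033).

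The other windows did not pass, though DKO was lower than EV without overlap in windows 1, 2, 3 and 5. Window 1 had a log2 difference of -0.71 (SE 0.23) and window 2 one of -0.91 (SE 0.30), both at an edgeR adjusted p of 0.053. Window 2, chr5:172078621-172275713, held 13.5 and 8.83 reads per 1000 in EV, 12.9 and 11.6 in S1KO, and 5.42 and 6.44 in DKO. Window 3, chr5:172275714-172472806, held 11 and 9.34 in EV, 8.68 and 12.8 in S1KO, and 4.51 and 7.48 in DKO, a log2 difference of -0.76 from EV (SE 0.34, edgeR adjusted p = 0.14). In both windows S1KO overlapped EV and DKO lay under both groups.

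In window 5, chr5:172669900-172866992, the levels were 5.84 and 7.05 in EV, 7.73 and 4.56 in S1KO, and 3.27 and 4.03 in DKO, a log2 difference of -0.82 from EV (SE 0.39, edgeR adjusted p = 0.17). Window 6, chr5:172866993-173064085, had 6.58 and 2.38 in EV, 4.68 and 7.53 in S1KO, and 2.5 and 2.11 in DKO, a log2 difference of -0.96 from EV (SE 0.50, edgeR adjusted p = 0.20). The 2.38 of EV replicate 2 rested on 5 fragments, against 26 in EV replicate 1, and lay between the DKO values. Window 8, chr5:173261179-173458271, had 8.41 and 3.42 in EV, 6.73 and 5.43 in S1KO, and 3.43 and 3.45 in DKO, a log2 difference of -0.78 from EV (SE 0.44, edgeR adjusted p = 0.23). Here too EV replicate 2 was at the DKO level, on 10 fragments against 26. Without EV replicate 1, the log2 difference of window 8 was 0.0078 and that of window 6 was -0.05.

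The number of windows called depended on the libraries and on the scaling. It was 3 without EV replicate 1, 1 without EV replicate 2, 2 without either S1KO library, 0 without DKO replicate 1 and 2 without DKO replicate 2. It was 1 with TMM scaling, which took the median over all windows from -0.67 to -0.05 and that of the stretch from -0.94 to -0.35, and 0 with all chromosome 5 reads as the library size. With TMM the window called was window 9 (log2 -1.84, adjusted p = 0.034), and the split over the 101 windows was 1 lower of 10 called instead of 10 lower of 14. All 10 windows of the stretch stayed below 0 under each scaling tried. With fragments counted once, no window was called and 9 of 10 were below 0.

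**Figure D4:**
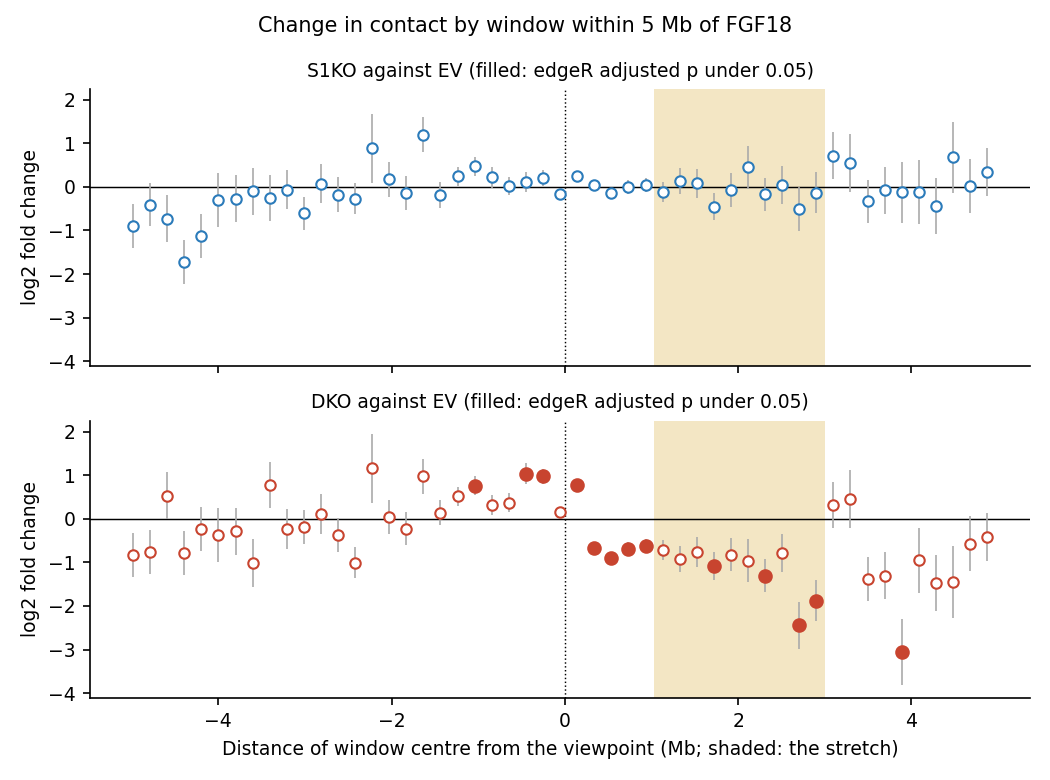
Fitted log2 difference (points, with standard errors as bars) of S1KO (top) and DKO (bottom) against EV in each window within 5 Mb of the viewpoint, by the distance of its centre in Mb; the stretch is shaded and filled points passed the edgeR test. In the stretch all 10 DKO points lie between -2.44 and -0.71, and the S1KO points lie on both sides of 0.

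Windows of the mirror below had a median log2 difference of 0.12 between DKO and EV, with 3 of 10 below 0 and 1 called, higher in DKO. Of the 35 windows more than 1 Mb above that lie outside the stretch, 33 were below 0, with a median of -1.10. The exceptions were those next to the far edge of the stretch, centred at 3099 kb (log2 0.32, SE 0.53) and 3296 kb (log2 0.46, SE 0.67). Neither passed the edgeR test. The lower DKO level was thus shared by most windows on the same side. The windows next to the far edge differed from EV by less than their SEs. Against S1KO their log2 differences were -0.40 and -0.09, so whether they share the lower level is not settled. Between the stretch and the viewpoint the lower level was shared by 4 of the 5 windows. On the lower side beyond 1 Mb, 33 of 46 windows were below 0 with a median of -0.30.

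Within the stretch, DKO fell short of EV by a larger ratio at the far end than at the near end. The last 2 windows together held 0.653 and 0.955% of the reads within 10 Mb in EV, 0.502 and 0.808% in S1KO, and 0.156 and 0.214% in DKO. For each read of the first 8 windows they had 0.0808 and 0.142 reads in EV, 0.0720 and 0.109 in S1KO, and 0.0437 and 0.0478 in DKO. Both DKO libraries lay below the other 4 (DKO against EV log2 -1.23, SE 0.41; exact permutation p = 0.333, n = 2 each), and the 2 windows were picked after their values were seen. Without 1 library this difference ran from -1.64 to -0.82. An even split gave 0.446 and 0.449 reads in the last 5 windows for each read of the first 5 in EV, 0.429 and 0.496 in S1KO, and 0.381 and 0.290 in DKO (DKO against EV log2 -0.43, SE 0.20; exact permutation p = 0.333). DKO was again the lowest group in reads without overlap. Without DKO replicate 2 this last difference was -0.23, and by fragments counted once it was -0.21 with overlapping groups (exact permutation p = 0.667).

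By their labels, DKO and S1KO differ by the removal of silencer 2. A difference between clones or cultures cannot be told apart from it. The comparison between DKO and S1KO uses the same DKO libraries as the one with EV. In all 10 windows both DKO libraries lay below both S1KO libraries, against 47.1% of windows within 10 Mb (above in 14.7%). Windows 2, 9 and 10 passed the test, all lower in DKO, against 12.9% of all windows in either direction and 8.91% as lower. Window 2 had a log2 difference of -1.05 (SE 0.30, edgeR adjusted p = 0.030). Window 9 had one of -1.94 (SE 0.53) and window 10 one of -1.75 (SE 0.47), both at an edgeR adjusted p of 0.027. Outside the stretch, all 35 windows more than 1 Mb above were also lower in DKO than in S1KO, with a median log2 difference of -1.22. Windows of the mirror had a median of -0.02. The median over the stretch was -0.94, above the -1.22 of its side and below the -0.60 over all windows. The count was 3 without EV replicate 1, 2 without EV replicate 2, 0 without either S1KO library, 0 without DKO replicate 1 and 1 without DKO replicate 2. It was 0 with TMM scaling. With fragments counted once, no window was called, 7 of 10 were below 0, and window 9 had a log2 difference of 0.021.

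Between S1KO and EV no window of the stretch passed the edgeR test, and none had an unadjusted p under 0.05. DESeq2 also called 0. The log2 differences ran from -0.51 in window 9 to 0.45 in window 6, with 6 below 0, 4 above and a median of -0.09 (all windows -0.08). S1KO was below EV without overlap in 1 window, window 4, against 16.7% of windows within 10 Mb, and above them in none, against 7.84%. Over all 101 windows the test called 0, which is 0.0%. The standard errors of the stretch's windows ran from 0.23 to 0.51, and in the comparison of DKO with EV a difference of -0.71 with an SE of 0.23 did not pass. Missing the threshold therefore does not show that S1KO and EV had the same levels.

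Single fragments were caught far less evenly than windows. Members had a median length of 3001 bp (8 to 22886 bp), and 84 of the 421 had reads in 1 library, 97 in 2, 80 in 3, 70 in 4, 59 in 5 and 31 in all 6. The share in all 6 was 7.36%, close to the 8.67% of the mirror and the 9.52% of all fragments within 10 Mb. Fragments in more libraries were longer, with a median of 1471 bp for those in 1 library and 6922 bp for those in all 6. Of the 31, 27 lay among the 161 members of the first 4 windows and 4 among the 260 of the last 6, with none in the last 2. Both libraries of a group had reads on 88 members in EV, 136 in S1KO and 128 in DKO. Between replicates, the Spearman correlation over members ran from 0.215 in EV to 0.246 in DKO, with S1KO at 0.236. Over the 10 windows it was higher, at 0.649 for EV, 0.758 for S1KO and 0.976 for DKO. These correlations describe fragments or windows of the same 2 libraries, which share depth and the distance from the viewpoint.

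The fragment with most EV reads lay at the near edge, chr5:171879377-171888603, 1032 kb above the viewpoint. It had 193 and 219 reads in EV, 141 and 124 in S1KO, and 537 and 450 in DKO. Per 10000 reads within 10 Mb that was 22.7 and 26.5 in EV, 8.77 and 9.37 in S1KO, and 19.5 and 14.3 in DKO. S1KO was the lowest group here and DKO lay between, so this fragment did not follow the order of the windows. Neither difference passed (S1KO against EV log2 -1.44, SE 0.82, edgeR adjusted p = 0.57; DKO against EV log2 -0.54, SE 0.80, edgeR adjusted p = 0.95).

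Fragment chr5:172344202-172353328 in window 3 had 166 and 191 reads in EV, 13 and 80 in S1KO, and 140 and 121 in DKO. Per 10000 that was 19.6 and 23.1 in EV, 0.809 and 6.05 in S1KO, and 5.08 and 3.85 in DKO. Both edited groups lay below both EV libraries, and neither difference passed (edgeR adjusted p = 0.57 for S1KO and 0.63 for DKO). Fragment chr5:172196832-172204593 in window 2 had 28.6 and 11.6 per 10000 in EV, 6.66 and 9.98 in S1KO, and 3.81 and 9.25 in DKO. Both edited groups again lay below both EV libraries, with a wider spread between the EV libraries. Fragment chr5:171913050-171926737 in window 1 had 13.6 and 14.0 per 10000 in EV, 9.33 and 10.8 in S1KO, and 8.78 and 3.27 in DKO, again with EV highest.

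The other 4 of the 8 fragments with the highest mean EV level were less even. Fragment chr5:171888608-171892808 had 186 and 29 reads in the EV libraries. Fragment chr5:171938308-171944563 had 41 and 148 reads in EV, and 132 and 0 in S1KO. Fragment chr5:171991183-171998752 had 84 and 122 reads in EV, and 0 and 273 in DKO. Fragment chr5:173162957-173170859, in window 7, had 40 and 145 reads in EV, 156 and 0 in S1KO, and 0 and 35 in DKO. Replicates of 1 group could thus stand at 0 and at over 100 reads on the same fragment. Because the 8 were chosen for their EV level, EV lying high on them is no finding.

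**Figure D5:**
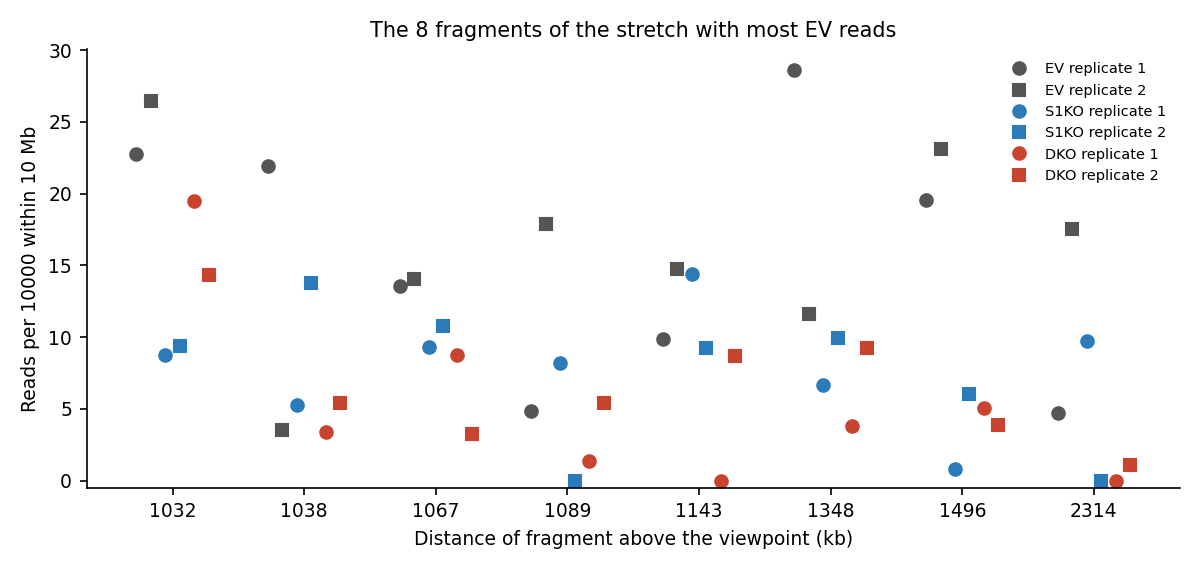
Reads per 10000 reads within 10 Mb on the 8 fragments of the stretch with the highest mean EV level, ordered by distance above the viewpoint in kb. Points are libraries; replicates of 1 group lie far apart on several fragments, such as 28.6 and 11.6 in EV at 1348 kb.

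No single fragment passed the edgeR test in any of the 3 comparisons. Of the 421 members 272 had enough reads to be tested, and 5 of them had an unadjusted p under 0.05 in each comparison. The share of all fragments with such an unadjusted p was not counted. By adjusted p, 0.0% of the 1799 fragments tested were called. The same test rarely recovered changes built into simulated fragment counts, so the lack of calls says little about single fragments. DESeq2 called 1 member between S1KO and EV (0.389% of all fragments tested), 2 between DKO and EV (1.17%) and 0 between DKO and S1KO (0.334%). The member called between S1KO and EV, chr5:171968651-171970264, had 84 and 33 reads in EV, 0 and 0 in S1KO, and 30 and 42 in DKO (DESeq2 adjusted p = 0.044). Those called between DKO and EV were chr5:172267041-172285348, with 14 and 117 reads in EV, 14 and 121 in S1KO and 0 and 2 in DKO, and chr5:172744463-172746730, with 46 and 95 in EV, 42 and 0 in S1KO and 0 and 0 in DKO (DESeq2 adjusted p = 0.021 and 0.018). All 3 rested on libraries without reads. A count of 0 would allow up to 3 reads only if reads were independent, which PCR-amplified reads are not. The DKO replicates stood at 0 and 273 reads on chr5:171991183-171998752, so no such limit is set here.

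Among the fragments with the lowest p, 4 were without reads in both EV libraries and had reads in all 4 edited ones. Fragment chr5:172472788-172478096 had 83 and 87 reads in S1KO and 126 and 57 in DKO. Fragment chr5:172721663-172739513 had 68 and 50 in S1KO and 70 and 87 in DKO. Fragment chr5:172776918-172782519 had 119 and 73 in S1KO and 35 and 172 in DKO. The last of them, chr5:173300955-173302890, had 122 and 34 in S1KO and 54 and 59 in DKO. None passed (edgeR adjusted p = 0.57 against S1KO and 0.63 against DKO). These fragments ran against the lower DKO level of the windows that hold them. They were picked for low p-values and met the filter on reads only through the edited libraries. Their direction is therefore no finding.

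A pair of further fragments had low p-values for DKO against S1KO. Fragment chr5:172600811-172610694 had 17 and 0 reads in EV, 45 and 99 in S1KO, and 0 in both DKO libraries. Fragment chr5:173082598-173083260 had 0 and 85 in EV, 0 and 142 in S1KO, and 0 in both DKO libraries. Neither passed (edgeR adjusted p = 0.71).

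Over the 421 members, both DKO libraries lay below both EV libraries on 52 (12.4%, against 5.9% of fragments within 10 Mb) and above them on 35 (8.31%, against 11.6%). Against S1KO they lay below on 75 (17.8%, against 10.2%) and above on 24 (5.70%, against 9.16%). S1KO lay below EV on 30 (7.13%, against 4.72%) and above on 52 (12.4%, against 9.21%). Lower members thus outnumbered higher ones for DKO in both comparisons, which share the DKO libraries, and higher members outnumbered lower ones for S1KO against EV, where EV replicate 2 listed the fewest fragments.

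In the authors' deposited q-values, made separately for each library, no fragment of the stretch was called an interaction at a threshold of 0.05 in any of the 6 libraries, and the lowest q on any member was 1. Within 10 Mb 11 and 5 fragments were called in EV, 17 and 15 in S1KO, and 8 and 19 in DKO. The farthest of these lay 588 kb from the viewpoint, in S1KO replicate 1, short of the near edge of the stretch at 1029 kb. The contacts described here are therefore the sparse reads beyond the reach of the authors' calls.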

How the data were processed

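The 6 4C-seq libraries of K562 cells were grouped by their titles. HindIII made the first cut, DpnII the second, and a MiSeq the reads, per the labels' protocols. Bowtie2 2.2.5 and hg19 are named in the submitters' processing notes. The interaction caller is not given in the sources used here. Reads per HindIII fragment are deposited as raw counts. The RPMs column of the authors was taken as a score and left unused. A p-value and a q-value for every listed fragment were computed by the authors, library by library.

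An unlisted fragment was given 0 reads. Counts per fragment and per window were tested with the quasi-likelihood test of edgeR 4.0.16 (R 4.3.3), with all 6 libraries fitted together, a minimum of 10 reads in 2 or more libraries and no TMM. The library size was the chromosome 5 reads within 10 Mb and outside the 10 kb next to the viewpoint. Benjamini-Hochberg values under 0.05 passed. Shares and ratios were compared by exact two-sided permutation tests over libraries (Python 3.11.15, numpy 2.4.6, pandas 2.3.3, scipy 1.17.1; plots with matplotlib 3.10.9). Alternatives were DESeq2 1.42.0, other scalings, denominators, filters, window widths and zones, capped reads, fragments counted once, the replicate number as a block and leaving out each library. The edgeR test of windows and of fragments was tried on simulated counts, for DKO against EV only.

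The members, comparisons and lists were chosen with earlier results of these data known. All windows are named. Fragments named are the 8 with the highest mean EV share, any that passed, and otherwise the 5 lowest p-values per comparison. DESeq2's calls were named after they were seen.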

Additional observations from a re-analysis of the deposited data

How the results depend on the processing

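The number of windows of the stretch called between DKO and EV was 4, and 1 with TMM, 0 with all chromosome 5 reads as library size, 2 with reads 1 to 10 Mb away as library size, 2 with DESeq2, 0 when all of chromosome 5 was fitted, 2 with only the 4 libraries compared, 1 of 20 with windows 0.5 times as wide, 0 with reads capped at the 90th percentile and 0 with fragments counted once. It was 6 with no filter on low counts, where 19 of all 102 windows were called. At double the width it was 5 of 5, where 21 of all 51 windows were called. Leaving out 1 library gave 0 to 3. Between DKO and S1KO the number was 3, and 0 with TMM, 0 with either other library size, 2 with DESeq2, 0 over all of chromosome 5, 1 with the 4 libraries compared, 0 with the narrower windows, 5 at double the width, 0 with capped reads, 0 with fragments counted once and 0 to 3 without 1 library. At double the width, 19 of all 51 windows were called between DKO and S1KO. Whether the replicate numbers pair the libraries is not known. Deviations of the libraries from their group means correlated at 0.094, -0.16 and 0.0057 between groups. With 2 libraries per group, these values cannot settle it. With the replicate number as a block, 2 windows were called for DKO against EV, 2 for DKO against S1KO and 0 for S1KO against EV. S1KO against EV had 0 windows under every alternative run. For fragments DESeq2 called 1 and 2 members where edgeR called 0, and every other alternative run called 0.

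The log2 difference in read share stayed below 0 for DKO against EV (-1.14 to -0.80 without 1 library, -0.54 with all chromosome 5 reads and the groups then overlapping, -0.20 by fragments) and for DKO against S1KO. For S1KO against EV it turned to 0.16 with all chromosome 5 reads and 0.040 with no zone left out, and ran from -0.15 to 0.035 without 1 library. The share of fragments for S1KO against EV turned to 0.16 with all chromosome 5 fragments and ran from -0.10 to 0.097 without 1 library. Against the inner flank, S1KO turned to 0.078 with capped reads and 0.19 with fragments counted once, and DKO to 0.14 with fragments counted once. Against the outer flank, fragments counted once gave 0.0052 for S1KO and 0.13 for DKO against EV. Without 1 library these ran from -0.34 to 0.13 and from -0.29 to 0.18, and for DKO against S1KO from -0.0066 to 0.10. The last 2 over the first 8 windows for S1KO against EV ran from -0.68 to 0.13, and the last 5 over the first 5 from -0.062 to 0.15. Of single windows, fragments counted once turned window 5 to 0.18 for DKO against EV, and windows 1, 4 and 9 to 0.021, 0.053 and 0.021 for DKO against S1KO. Window 8 for DKO against EV ran from -1.29 to 0.0078 without 1 library. The cause of these changes was not tested. Members with reads had a median of 19.5 to 44 reads, 31 of 421 had reads in all 6 libraries, and thinning to 1 depth left 258 and 121 members with reads in EV, 246 and 204 in S1KO, and 163 and 251 in DKO.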
